A study of Mus musculus with 26 samples.

Results

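Among 26 single mouse retinal cells that were harvested as amacrine cells, 9 carried transcripts of 4 or more of 10 rod photoreceptor genes and are called rod-rich here, 12 carried 0 or 1 of them and are called rod-poor, and 5 carried 2 or 3 and lay in between. The 10 genes were Nrl, Crx, Sag, Pdc, Rom1, Pde6g, Rcvrn, Pde6b, Gnat1 and Rp1, each read from its probe set with the highest mean, and detection in a cell meant a signal of 1000 or more. The rod-rich cells were 34.6% of all cells (exact Clopper-Pearson 95% interval 17.2% to 55.7%, which covers counting error only). Because these signals formed the sides, they are given as a description and no difference between the sides was tested.

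The cells came from retinas electroporated with a green fluorescent protein reporter under the pNdrg4 or the pSynapsin promoter. Each was picked by hand for its fluorescence, its mRNA was amplified by 35 cycles of PCR, and it was hybridised to 1 Affymetrix Mouse 430 2.0 array. The rod-rich cells were 2 P8 pNdrg4 cells and 1 P8 pSynapsin cell from retinas cultured for 8 days, 2 P5 pSynapsin cells from retinas cultured for 5 days, and 4 P5 pNdrg4 cells whose labels state no culture. The rod-poor cells were 4 P5 pNdrg4 cells with no culture stated, 4 P5 pNdrg4 cells cultured for 5 days, 1 P5 pSynapsin cell cultured for 5 days, 2 P4 pNdrg4 cells cultured for 4 days, and 1 cell labelled E19 that carried pSynapsin and was cultured for 4 days. The labels give no strain, animal, retina or culture of origin, so cells of a side may share an animal, a side counts as 1 sample, and SDs below are the spread over cells.

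Rods are the light-sensing cells of dim light, and amacrine cells are interneurons that mostly inhibit their partners in the inner retina. Both arise from the same retinal progenitors. The homeobox factor Crx and the leucine zipper factor Nrl together switch on the rod genes, among them the proteins of the light response such as transducin, phosphodiesterase, arrestin and recoverin. In the mouse, rods are still being born and begin to fill with these transcripts in the first days after birth, the period sampled here.

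Crx binds a short core written TAATCC, or GGATTA on the other strand. That core was looked for on both strands of 300-base windows, 250 bases before to 50 after a gene's start, from the RefSeq promoter table of build GRCm38.p6. It was in 2320 of all 32851 windows (7.06%), in 2 of the 6 windows of counted genes that had an entry, and in 15 of the 42 windows listed for 33 other genes of the rod list. Shown are the windows of the rod genes that hold the core and were detected in at least 7 of 9 rod-rich cells, with the core in capitals. The core was also in windows of rod genes detected in no cell, such as Gngt1, Guca1a, Gucy2e and Ppef2. The window of Crx itself (chr7:15879906-15880205, minus strand) holds it 94 and 21 bases before the start. That of Sag, which encodes rod arrestin (chr1:87803430-87803729, plus strand), holds it 87 bases before. Rbp3, the gene of the retinoid carrier between rods and pigment epithelium (chr14:33953753-33954052, plus strand), holds it 69 bases before, and the transcriptional regulator gene Samd11 (chr4:156255293-156255592, minus strand) 193 and 67 bases before. A match describes the letters and does not show binding.
Crx: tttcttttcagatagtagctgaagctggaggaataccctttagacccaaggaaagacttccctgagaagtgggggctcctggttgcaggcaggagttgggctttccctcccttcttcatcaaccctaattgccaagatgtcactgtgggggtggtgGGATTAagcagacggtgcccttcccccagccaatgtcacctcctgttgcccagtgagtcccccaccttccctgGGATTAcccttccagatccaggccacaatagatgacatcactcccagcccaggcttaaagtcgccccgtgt
Sag: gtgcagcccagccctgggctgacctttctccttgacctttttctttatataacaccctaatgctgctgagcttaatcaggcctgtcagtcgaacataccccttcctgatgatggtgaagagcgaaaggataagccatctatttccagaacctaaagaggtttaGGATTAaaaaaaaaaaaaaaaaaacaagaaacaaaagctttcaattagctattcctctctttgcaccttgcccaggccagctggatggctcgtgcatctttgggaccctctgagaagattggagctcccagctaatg
Rbp3: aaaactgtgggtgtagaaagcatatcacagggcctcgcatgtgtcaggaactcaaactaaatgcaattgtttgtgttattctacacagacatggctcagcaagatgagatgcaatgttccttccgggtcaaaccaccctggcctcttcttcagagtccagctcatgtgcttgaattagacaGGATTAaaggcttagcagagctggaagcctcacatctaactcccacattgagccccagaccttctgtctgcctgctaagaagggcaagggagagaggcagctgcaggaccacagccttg
Samd11: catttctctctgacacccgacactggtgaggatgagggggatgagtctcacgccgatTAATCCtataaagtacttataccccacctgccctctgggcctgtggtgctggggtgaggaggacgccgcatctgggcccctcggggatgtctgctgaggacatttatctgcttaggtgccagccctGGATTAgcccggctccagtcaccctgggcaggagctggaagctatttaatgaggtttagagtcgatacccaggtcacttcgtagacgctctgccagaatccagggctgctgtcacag

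Crx and Nrl, the regulators among the 10, were detected in nearly every rod-rich cell. Crx was detected in 9 of 9 rod-rich cells, 4 of 5 cells in between and 1 of 12 rod-poor cells, with signals of 1002, 2914 and 37462 (lowest, median, highest) in rod-rich cells and 1.42, 39.5 and 2447 in rod-poor cells. Nrl was detected in 8, 1 and 1 cells of the same sides, with 470.0, 5840 and 24495 in rod-rich cells and 3.49, 16.1 and 5523 in rod-poor cells. The single rod-poor cell with Nrl was P5 C1 and the one with Crx was P5 C6, so neither cell held both. A second Crx probe set, not used for the sides, was detected in only 2 rod-rich and 0 rod-poor cells.

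Among the proteins of the light response, Sag was at 363, 9272 and 14673 in rod-rich cells and at 8.14, 25.4 and 691 in rod-poor cells. Pdc, which encodes the transducin-binding protein phosducin, was at 381, 7079 and 17700.0 in rod-rich cells and at 2.81, 25.2 and 213 in rod-poor cells. Sag and Pdc were each detected in 8 of 9 rod-rich and 0 of 12 rod-poor cells. Pde6g, the gene of the inhibitory subunit of rod phosphodiesterase, was detected in 7 of 9 rod-rich cells, 0 of 5 in between and 0 of 12 rod-poor cells, and its second probe set was also detected in 7 and 0.

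The remaining phototransduction genes of the 10 were seen mostly in P8 cells, which all came from retinas cultured for 8 days. Rcvrn (recoverin) and Pde6b (the catalytic phosphodiesterase subunit) were each detected in all 3 P8 rod-rich cells, in 1 of 2 rod-rich P5 pSynapsin cells (P5 E2) and in 0 of 4 rod-rich P5 cells with no culture stated. Rcvrn was also detected in the remaining P8 cell, P8 B3 of the in-between cells, at 4717, where Pde6b was at 96.2, and neither gene was detected in any other cell. Cells with Rcvrn or Pde6b had from 3382 (P8 A1) to 4180 (P8 A2) genes detected in all. Of the rod-rich P5 cells with no culture stated, P5 B3, P5 B1 and P5 A6 had 2046 to 2291 and P5 B4 had 3513. The parts of age, culture and number of genes detected were not tested. Gnat1, the rod transducin alpha subunit, was detected in 2 cells, P8 B4 and P8 A2, and Rp1, a microtubule protein of the outer segment, in P8 B4 and P5 B4. A second Rp1 probe set was detected in 0 rod-rich and 0 rod-poor cells. Rom1, an outer segment disc protein, was the least selective of the 10: it was detected in 8 of 9 rod-rich cells and also in 5 of 12 rod-poor cells, the highest of them at 18368 in P4 B4.

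**Figure D1:**
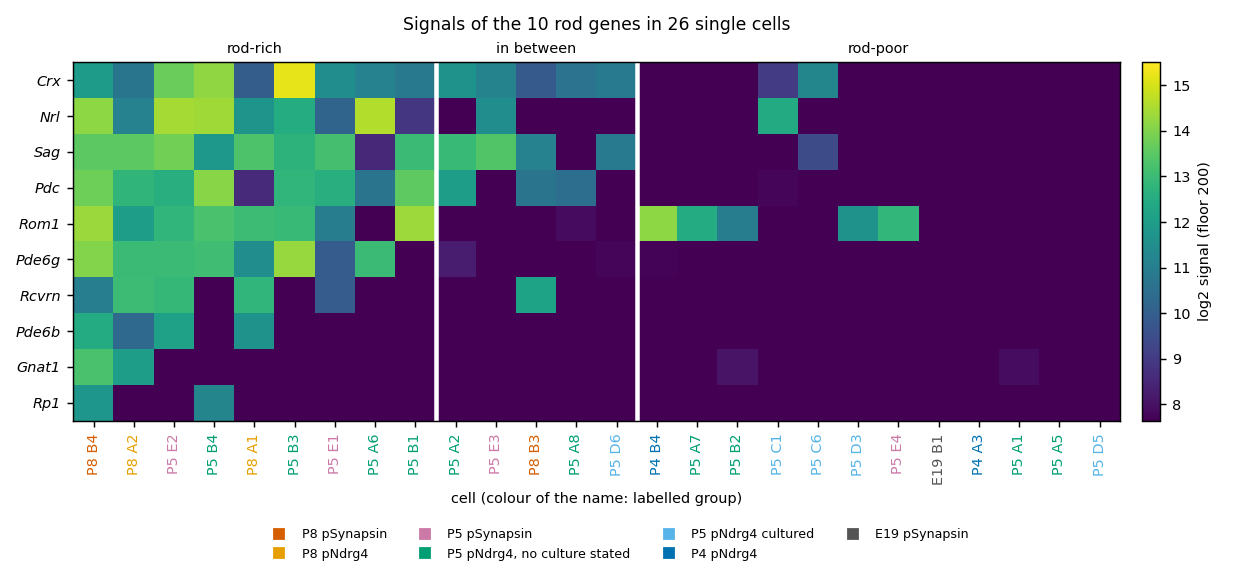
Log2 signal, with a floor of 200, of the 10 rod genes (rows) in all 26 cells (columns), ordered by the number detected; white lines part the 9 rod-rich, 5 in-between and 12 rod-poor cells and name colours give the labelled group. Crx fills all 9 rod-rich columns, Gnat1 is bright in 2, and Rom1 is the one gene bright in several rod-poor columns.

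The number of genes detected set the side of each cell. P8 B4 held all 10, P8 A2 held 9, P5 E2 held 8, P5 B4 and P8 A1 held 7, P5 B3 held 6, P5 E1 held 5, and P5 A6 and P5 B1 held 4. Just outside the threshold, P5 A2, P5 E3 and P8 B3 held 3 genes, and P5 A8 and P5 D6 held 2. Of the 12 rod-poor cells 7 held 1 gene, which was Rom1 in 5 of them, and 5 held none. Some values lay close to the detection level: Crx in P8 A1 was at 1002, and in P5 E1 Rcvrn was at 985 and Pde6g at 970.1. Crx in P8 B3 lay just below that level, at 935, and this value decided the side of the cell. Had Crx counted as detected there, P8 B3 would have been rod-rich, as it was with sides formed at a detection level of 500.

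All 3 P8 rod-rich cells shared their age with only 1 other cell, P8 B3, which lay in between, so no P8 cell was rod-poor. None of the 3 cells labelled P4 or E19, and none of the 5 cultured P5 pNdrg4 cells, was rod-rich. Of the 10 P5 pNdrg4 cells for which no culture is stated, 4 were rod-rich, 2 lay in between and 4 were rod-poor, and this was the largest group that held both sides. Of 16 cultured cells 5 were rod-rich and 8 rod-poor, and of 7 pSynapsin cells 3 were rod-rich and 2 rod-poor. Age, culture and side were therefore mixed unequally, and where it matters the values within the P5 cells with no culture stated are given too.

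Amacrine genes were detected on both sides. Pax6, a homeobox factor of amacrine cells that progenitors and Müller glia express too, was detected in all 26 cells, so it does not by itself tell these cell types apart. Its signal was at 9755, 16603 and 39697 in rod-rich cells and at 2034, 22349 and 32213 in rod-poor cells. The vesicular inhibitory amino acid transporter gene Slc32a1 was detected in 7 of 9 rod-rich and 10 of 12 rod-poor cells, and Tfap2b, an amacrine transcription factor gene, in 7 and 11. Some amacrine factor genes were detected in fewer rod-rich cells: Tfap2a in 4 of 9 against 10 of 12 rod-poor cells, and Meis1 and Barhl2 each in 2 against 7. Others of that list ran the other way, such as Neurod4 in 5 against 1 and Neurod1 in 6 against 4. The median number of the 27 measured factors detected per cell was 8 on both sides. The rod-rich cells thus held rod transcripts beside some of the transcripts listed for amacrine cells. How much of either came from the picked cell was not tested.

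Arrays had been scaled to the same trimmed mean of 500, so array totals give no depth; the number of genes detected is used in its place. It was 2046, 3462 and 4180 (lowest, median, highest) in rod-rich cells and 1909, 2917 and 3925 in rod-poor cells. Within the P5 cells with no culture stated it was 2046 to 3513 in rod-rich cells and 1909 to 2583 in rod-poor cells, and the highest, 3513, was in P5 B4. Rank correlations between pairs of cells over genes lay between 0.21 and 0.47, and no pair was treated as the same cell.

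Rod genes outside the 10 were detected in part, with a median of 9 of the 42 measured per rod-rich cell. The median of 7 of the 10 is no measure to set beside it, because the cells were chosen by those 10. Of the 42 measured, 18 were detected in at least 2 cells. Many genes that serve the mature outer segment were detected in no cell: Pde6a, Gngt1, Prph2, Grk1, Gucy2e, Guca1a, Guca1b, Slc24a1, Rdh12, Rgs9 and Fscn2. The same held for Cabp4, Cacna1f, Crb1, Esrrb, Impg1, Kcnv2, Mef2c, Nxnl1 and Ppef2. Rgs9bp and Rp1l1 were each detected in 1 rod-rich cell, and Cnga1 and Samd7 each in 1 rod-poor cell. Per cell 2, 9 and 15 of the 42 (lowest, median, highest) were detected in rod-rich cells, 3, 4 and 6 in the cells between, and 2, 4 and 8 in rod-poor cells. The sides overlapped: P8 B4 (15), P8 A2 (14), P5 B4 (13), P5 E2 (11) and P8 A1 (9) were above every rod-poor cell, and P5 B3 held 2.

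Differences between sides are means of log2 signal, floored at 200, in rod-rich minus rod-poor cells, and 2 log2 units (4-fold) was taken as the level for counting. The floor makes a difference against an undetected gene smaller than it is. Over 8560 genes detected in at least 2 cells, 160 were higher by that level (1.87%) and 83 lower (0.97%), the median difference was 0.06, and no gene had all 9 rod-rich cells above or below all 12 rod-poor cells. Of the 42 rod genes 3 were higher by the level and 0 lower, and their median was 0.09. The 18 that passed the filter had a median of 1.32, which the filter itself favours.

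Tulp1, whose protein carries cargo to the photoreceptor outer segment, had the largest difference among these rod genes. Its signal was at 185, 2605 and 31994 in rod-rich cells and at 19.2, 83.0 and 1929 in rod-poor cells, a difference of 3.28 (log2 mean 11.60 ± 2.09 against 8.32 ± 1.20, SD, n = 9 and 12 cells). It was detected in 8 of 9 rod-rich and 2 of 12 rod-poor cells. Prom1, which shapes disc membranes, differed by 2.32 and was detected in 4 rod-rich and 1 rod-poor cells, and Stx3, the syntaxin of ribbon synapses, differed by 2.26 with 5 and 1. With the median over its probe sets in each cell the difference of Stx3 was 0.36.

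Rbp3 and Samd11 came just under that level. The signal of Rbp3 was at 63.6, 2734 and 12496 in rod-rich cells and 10.8, 28.4 and 13100.3 in rod-poor cells, a difference of 1.98, and was detected in 7 and 4 cells. That of Samd11 was at 43.0, 3668 and 23802 in rod-rich cells and 84.4, 419 and 6184 in rod-poor cells, a difference of 1.96, again with 7 and 4. In neither gene did the sides separate, and the highest Rbp3 signal of all was in the rod-poor cell P4 B4. These are the 2 genes outside the 10 whose promoter windows are shown above.

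A few rod genes were detected in 2 or 3 rod-rich cells and in no rod-poor cell. The share of all genes with such a pattern was not counted, so these are a description only. Cngb3 of the same list showed the reverse, with 0 rod-rich and 2 rod-poor cells. Abca4, the retinoid flippase of rod discs, was detected in 3 rod-rich cells, Mpp4, a scaffold of the rod terminal, in 3, and Reep6 in 2, and none of them in a rod-poor cell or a cell between. Cdhr1, a cadherin at the base of the outer segment, was detected in 5 rod-rich and 2 rod-poor cells and differed by 1.78. Elovl4, which makes very long chain fatty acids, was detected in 5 and 4 cells and differed by 1.29, and Cngb1, a subunit of the rod cation channel, in 4 and 2 and differed by 1.34. Elovl4, Cdhr1 and Stx3 were each detected in all 3 P8 rod-rich cells. In the 4 rod-rich P5 cells with no culture stated they were detected in 0, 1 and 1. All of these P5 cells but P5 B4 also had fewer genes detected in all than the P8 cells.

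Gene products that rods share with other neurons differed by less than the level. Gnb1, a G protein beta subunit used by rod transducin and by many other receptors, differed by -0.53 and was detected in 8 of 9 rod-rich and 12 of 12 rod-poor cells. Slc6a6, the taurine transporter, differed by -0.20 (5 and 7 cells) and Unc119 by 0.63 (5 and 6 cells). The remaining rod genes were Gnb5 (1.31, 5 and 3 cells), Tmem237 (0.79, 3 and 2) and Aipl1 (0.58, 1 and 1). Cngb3, which the list counts with the rod genes, encodes a subunit of the cone channel and differed by -0.55 (0 and 2).

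**Figure D2:**
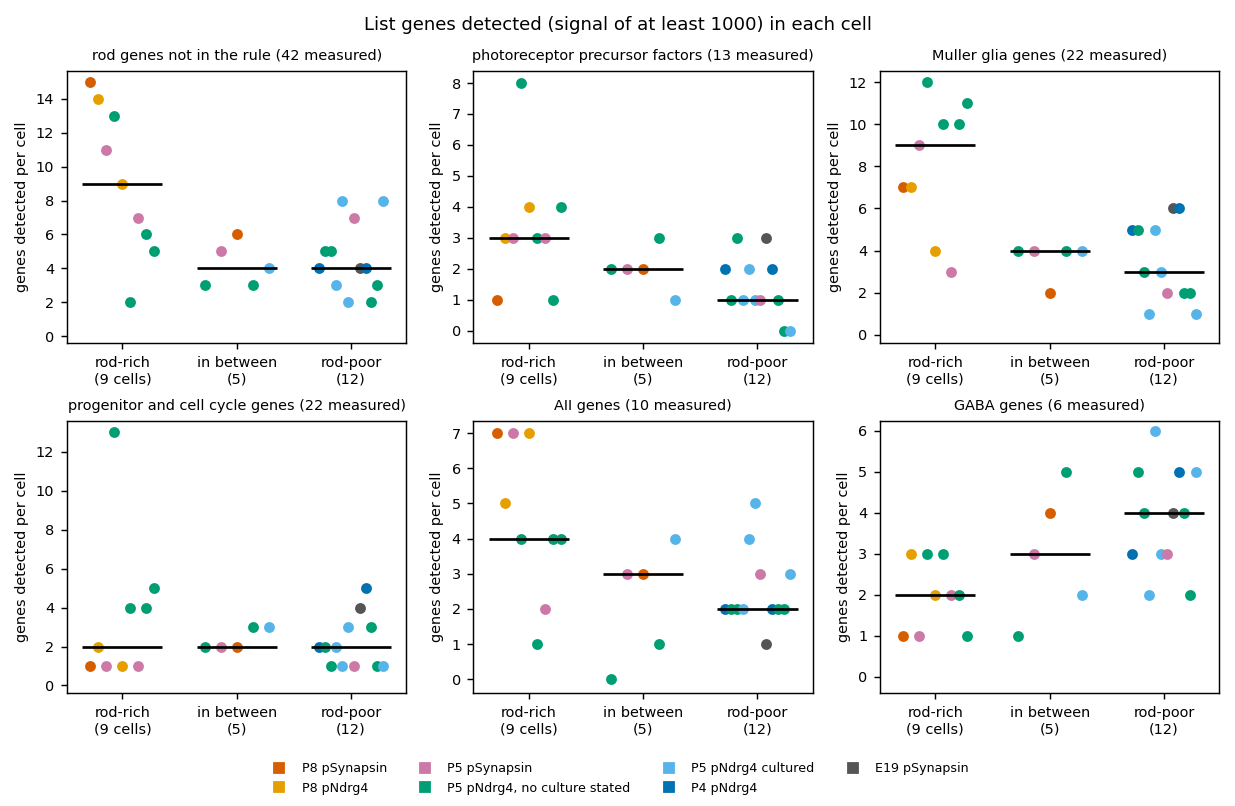
Number of list genes detected in each cell (vertical axis) for 6 gene lists, with 1 point per cell coloured by labelled group and a line at the median of each side. The rod-rich P5 cells with no culture stated hold 10 to 12 Müller glia genes, and GABA genes have a median of 2 in rod-rich and 4 in rod-poor cells.

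Factors of photoreceptor precursors leaned to the rod-rich side. Neurod1, a helix-loop-helix factor of photoreceptors and amacrine cells, was detected in 6 of 9 rod-rich and 4 of 12 rod-poor cells and differed by 2.42. Rorb, an orphan nuclear receptor upstream of Nrl, was detected in 7 and 5 cells (0.95) and Mef2d in 7 and 3 (1.73). Otx2, the factor at the top of the photoreceptor programme, was detected in P5 B4 at 12231 and in P5 B3 at 10275, and in 1 rod-poor cell, P5 B2, at 12445. Of 13 measured members 7 passed the filter, with differences above 0 (53.4% of all genes were above 0), and 1 exceeded the level; the median over the 13 was 0.52. P5 B4 alone held 8 of the 13, while the other rod-rich cells held 1 to 4.

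Cone genes were nearly absent. Of 10 measured only Gnb3, a G protein beta subunit of cones and ON bipolar cells, was detected in more than 2 cells: in 6 of 9 rod-rich, 1 of 5 in-between and 1 of 12 rod-poor cells, with 23.6, 5465 and 13524 in rod-rich cells and 9.52, 99.3 and 2963 in rod-poor cells (difference 3.11). The short-wave opsin gene Opn1sw was detected in P5 B3 at 4967 and in the in-between cell P5 A2 at 1146. The cone arrestin gene Arr3 was detected in 1 cell, the rod-poor P4 A3. The cone channel gene Cngb3, which was counted with the rod list, was detected in no rod-rich cell and in the rod-poor cells P5 C6 at 1964 and E19 B1 at 2011.

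The gene with the largest difference outside the rod lists was Crym, which encodes a thyroid hormone binding crystallin. It was detected in all 9 rod-rich cells, 3 of 5 in between and 1 of 12 rod-poor cells. Its signal was at 1081, 12289.5 and 42726 in rod-rich cells and at 1.64, 88.4 and 4583 in rod-poor cells, a difference of 4.91 (log2 mean 13.12 ± 1.63 against 8.22 ± 1.33). The rod-poor cell with Crym was P4 A3, and within the P5 cells with no culture stated all 4 rod-rich cells, from 12289.5 upwards, were above all 4 rod-poor cells, the highest of them at 166.

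Ndrg1, a stress-responsive gene, followed at 4.33, with 299, 9697 and 39484 in rod-rich cells and 4.32, 116 and 16959 in rod-poor cells. It was detected in 8 rod-rich cells and in the rod-poor cells P5 A7 and E19 B1. Its chosen probe set is of a type that can also bind related transcripts, and with the median over its probe sets the difference was 1.81. Btg2, an antiproliferative immediate early gene, was at 68.2, 5503 and 12674 in rod-rich cells and at 12.2, 33.5 and 426 in rod-poor cells (difference 3.65), and was detected in 7 and 0 cells. P8 A1 and P5 E1 were the rod-rich cells without it. A second Btg2 probe set differed by only 0.41 and was detected in 1 rod-rich and 0 rod-poor cells.

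The other genes of the highest 15 included general cell components. Eif1b, a translation initiation factor gene, differed by 3.15 and was detected in 9 and 7 cells, the ribosome assembly gene Brix1 by 2.95 (7 and 2), the histone gene H2aw by 2.95 (8 and 4) and the tetraspanin gene Tspan31 by 2.92 (8 and 3). A second probe set of H2aw differed by -0.16 (0 and 1) and that of Brix1 was detected in 0 and 0. Other probe sets of Tspan31 differed by 2.15 (7 and 3) and -0.02 (0 and 0). Lage3, a subunit of a tRNA-modifying complex, differed by 3.40 (8 and 3), Hsdl1 by 3.04 (7 and 1) and Ei24 by 2.91 (8 and 4). By detection alone, Crym, Ndrg1, Tulp1 and Vim were the 4 genes (0.0467%) seen in at least 8 rod-rich and at most 2 rod-poor cells, limits that were set after the values had been seen.

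**Figure D3:**
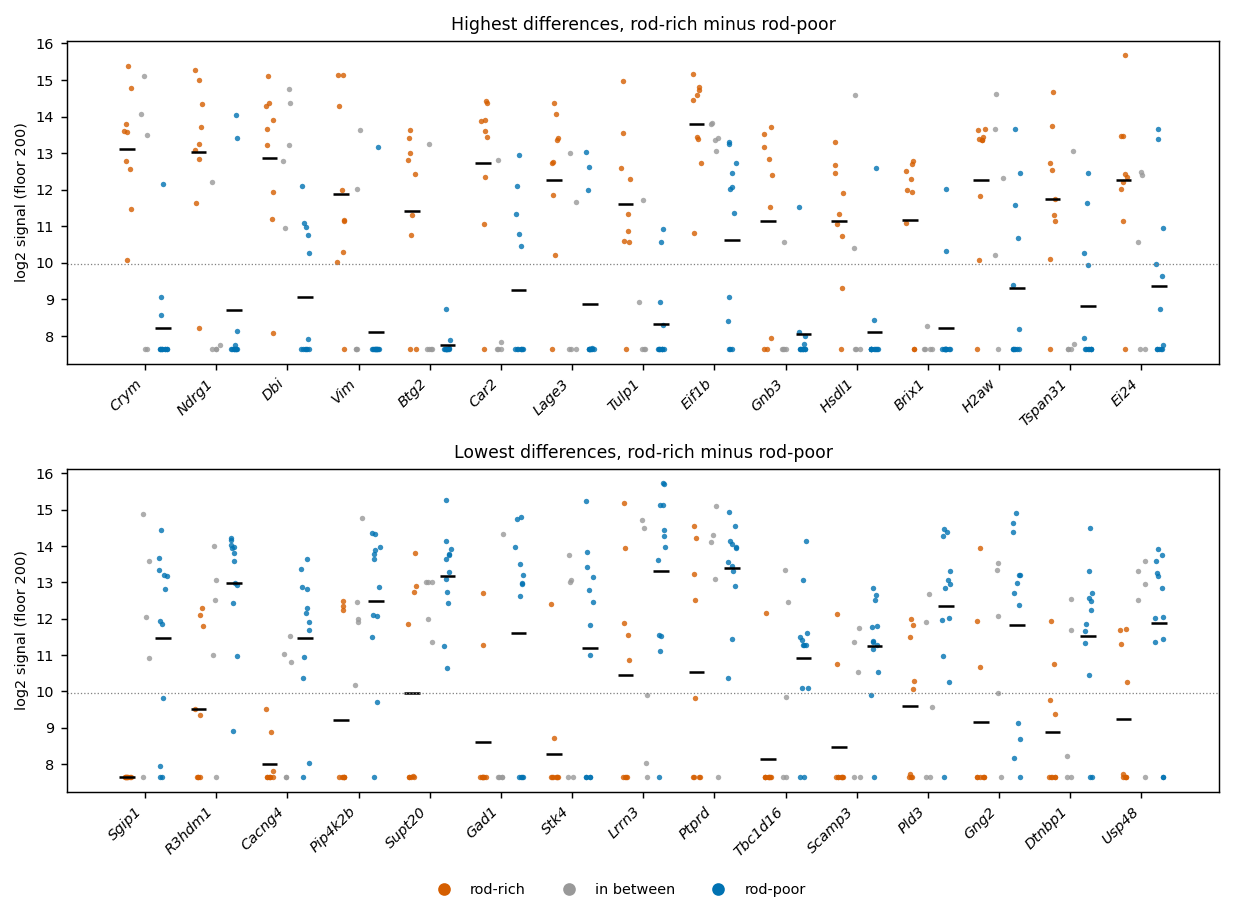
Log2 signal with a floor of 200 of the 15 genes with the highest (top) and the 15 with the lowest (bottom) difference, with 1 point per cell in the order rod-rich, in between, rod-poor, black bars at the means and a dotted line at the detection level of 1000. Sgip1 is at the floor in all 9 rod-rich cells, and no gene has sides that do not overlap.

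Genes of Müller glia, the radial support cells of the retina, were higher on the same side as the rod genes. The filament gene Vim was at 43.1, 2304 and 36153 in rod-rich cells and at 3.16, 40.9 and 9129.6 in rod-poor cells, a difference of 3.77, and was detected in 8 and 1 cells. Dbi, an acyl-CoA binding protein gene, differed by 3.79 (8 and 5 cells), the carbonic anhydrase gene Car2 by 3.48 (8 and 5), and Sox2, a factor of progenitors, glia and some amacrine cells, by 2.74 (4 and 0). Per cell 3, 9 and 12 of the 22 measured list genes were detected in rod-rich cells and 1, 3 and 6 in rod-poor cells. The 12 that passed the filter were above 0, as were 53.4% of all genes. Past the level were 4, against 1.87% of all genes, and the median over the 22 measured was 0.68. The filter itself favours such counts: Sox2 and Cd9, for example, were detected in rod-rich cells only.

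The defining genes of mature Müller glia were mostly sparse. Rlbp1, the retinaldehyde binding protein, was detected in 4 rod-rich cells and 1 rod-poor cell and differed by 1.50, while Glul, the glutamine synthetase, was detected in 7 and 8 and differed by 0.17. The glutamate transporter gene Slc1a3 and the factor genes Sox9 and Sox8 were each detected in 1 rod-rich and 0 rod-poor cells, and Apoe, Aqp4, Kcnj10 and Hes1 were detected in no cell. Averaged over the 12 members that passed, the log2 signal of a cell ranged from 9.08 to 13.01 in rod-rich cells and from 8.03 to 10.47 in rod-poor cells. What part this list had in the other differences was not tested.

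These glial genes were strongest in the 4 rod-rich P5 cells with no culture stated, which held 10 to 12 of them against 2 to 5 in the 4 rod-poor cells of that group. Sox2 was at 13185 in P5 B4, 17635 in P5 B3 and 34320.1 in P5 B1, and at most 96 in P5 A6 and in the 4 rod-poor cells of the group. Dapl1 was detected in all 4 rod-rich cells, from 1253 in P5 A6 to 8207 in P5 B3, and in none of the 4 rod-poor cells. The membrane protein gene Cd9 was detected in 3 rod-rich cells, all of this group, and in no other cell. The list median was 2.89 within this group and 1.32 over all cells, where it was 1.05 without P5 B4.

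The same 4 cells also held transcripts of dividing cells. Of 22 progenitor and cell cycle genes measured P5 B4 held 13, P5 B1 held 5, and P5 B3 and P5 A6 held 4, against 1 to 3 in the 4 rod-poor cells of their group. The other rod-rich cells held 1 or 2 of the 22. Of the rod-poor cells in other groups, P4 A3 with 5 and E19 B1 with 4 held as many as P5 B1, P5 B3 and P5 A6, so P5 B4 alone was above every rod-poor cell. The cyclin gene Ccnd1 was at 36648 in P5 B3, 14004 in P5 B4, 12226 in P5 A6 and 4647 in P8 B4, and among rod-poor cells at 17625 in E19 B1 and 1963 in P4 A3. The topoisomerase gene Top2a was detected in P5 B4, P5 B3 and P5 B1, and in the rod-poor E19 B1 at 8359. Ube2c, which serves exit from mitosis, and Rrm2, which supplies nucleotides for DNA synthesis, were each detected in 2 of the 4 cells and in no other cell. In cultured cells alone the list median was -0.32, against 0.54 over all cells and 1.62 within the P5 cells with no culture stated. Without P5 B1 the median over all cells was 0.07. Not all cycle genes leaned this way: Pcna was detected in 3 rod-rich and 8 rod-poor cells.

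**Figure D4:**
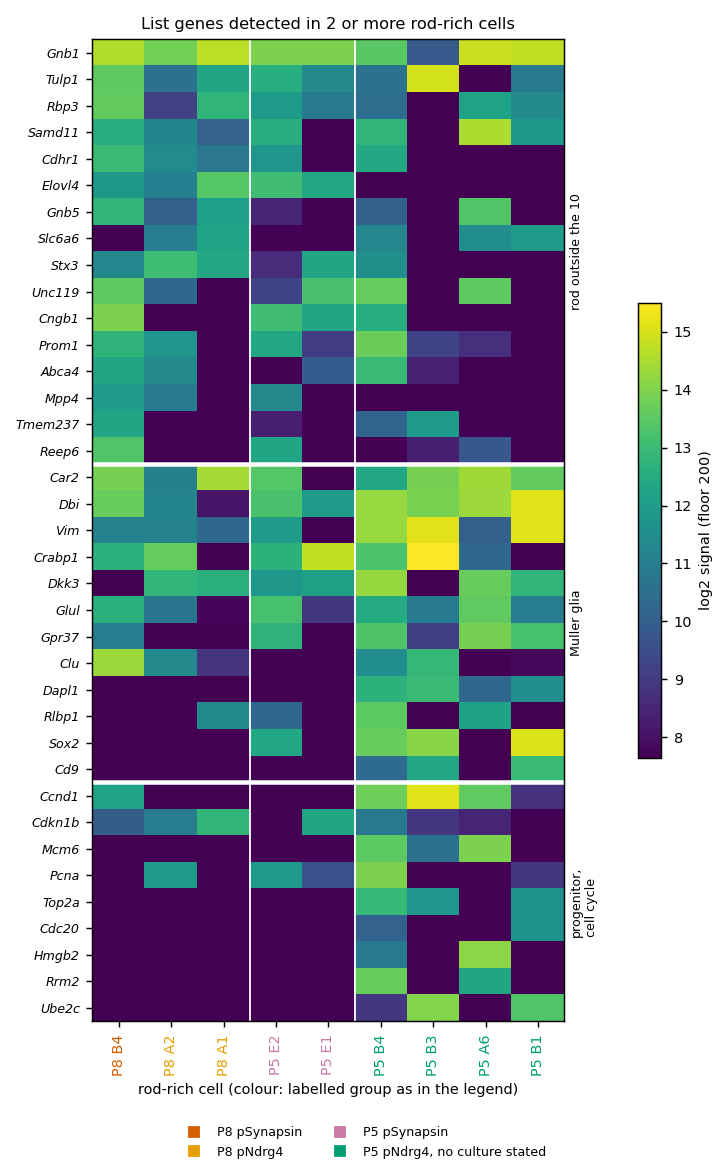
Log2 signal with a floor of 200 in the 9 rod-rich cells (columns, by labelled group) of the rod genes outside the 10 (top), Müller glia genes (middle) and progenitor and cell cycle genes (bottom) detected in at least 2 rod-rich cells. The lower right block, Dapl1, Sox2, Cd9 and the cycle genes in the 4 P5 cells with no culture stated, is dark in most of the other 5 cells.

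Amacrine class genes were also divided between the sides. Slc6a9, the glycine transporter that marks glycinergic amacrine cells, was detected in 8 of 9 rod-rich and 4 of 12 rod-poor cells, with 31.0, 11314 and 16123 in rod-rich cells and 15.6, 189.98 and 23213 in rod-poor cells (difference 2.71). Gad1, which makes GABA, ran the other way: it was detected in 2 rod-rich and 8 rod-poor cells, with 1.72, 12.4 and 6639 in rod-rich cells and 2.83, 8016 and 28786 in rod-poor cells (difference -3.01). Of the rod-rich cells 7 held Slc6a9 without Gad1 and 1 held Gad1 without Slc6a9, against 4 and 8 of the rod-poor cells.

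All 6 GABA genes measured were below 0, as were 46.6% of all genes, with a median of -1.35. The second synthetic enzyme gene Gad2 differed by -1.50 (3 and 9 cells), the transporter gene Slc6a11 by -1.94 (1 and 7) and Slc32a1, which glycinergic cells use too, by -1.20. Among the 7 glycine genes only Slc6a9 was past the level. The neuronal glycine transporter gene Slc6a5 was detected in 3 and 1 cells and differed by 0.86.

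Genes linked to AII cells, the glycinergic amacrine cells that pass rod signals to the cone pathway, had differences above 0 in 8 of 10 (53.4% of all genes were above 0), with a median of 1.68. Car2 (3.48), given above with the Müller glia genes, is on this list too and counts in both. By the difference of side medians the list median and Gjd2 were both at 0.00. The gap junction gene Gjd2 was detected at 22700 in P8 B4, 34051 in P8 A1, 20698 in P5 E2 and 18709 in P5 B1, and in 1 rod-poor cell, P5 C6, at 6846. Nfia was detected in 5 and 1 cells (difference 2.51), Dab1, whose protein labels AII cells, in 7 and 4 (2.24) and the calretinin gene Calb2 in 6 and 2 (1.71). Cells with Dab1, Nfia, Gjd2 and the helix-loop-helix gene Neurod2, which is not on the list, together numbered 4, and all were rod-rich. The share of other gene combinations with such a pattern was not counted, so this is a description only. With the median over its probe sets Nfia differed by -0.17. The glutamate receptor gene Gria3 was on the AII list as well and ran the other way, at -2.51, detected in 5 and 12 cells. Cnr1 of that list was detected in 1 rod-rich cell, P8 A2, and in 5 rod-poor cells.

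Among cells with Slc6a9 detected, 8 rod-rich and 4 rod-poor, Gad1 differed by 0.45 and Slc6a9 itself by -0.88, while Crym differed by 5.42, Ndrg1 by 5.12, Vim by 3.82, Tulp1 by 2.72 and Gjd2 by 3.43. The medians were 1.49 for the other rod genes, 2.18 for the Müller glia list and -0.73 for the GABA list.

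Other amacrine factors differed gene by gene. Neurod4 was detected in 5 rod-rich and 1 rod-poor cells and differed by 3.48, and Neurod2 in 5 and 0 (2.26). Tfap2a differed by -2.52, Meis1 by -2.72 and Barhl2 by -1.78. Averaged within the labelled groups that hold both sides, Tfap2a was at -0.17. That average joins -2.74 in the P5 cells with no culture stated and 2.39 in the P5 pSynapsin cells. In the latter the rod-poor side is a single cell. Leaving out 1 cell at a time over all cells gave -2.93 to -2.28 for Tfap2a. The median of 20 factors that passed the filter was -0.21 over all cells and 0.73 within the P5 cells with no culture stated. The peptide and transmitter class markers were sparse, and Reln, a secreted matrix protein gene, was detected in 0 rod-rich and 4 rod-poor cells (-2.16).

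The largest negative difference belonged to Sgip1, an endocytic adaptor gene of neurons. It was below the floor in all 9 rod-rich cells, at 5.96, 63.4 and 129, and was at 81.2, 5572 and 22179 in rod-poor cells, where 8 of 12 had it detected, as had 4 of 5 cells in between (difference -3.82). Its other probe sets differed by -0.87 to 0.53, and with the median over all of them it was at -0.29. Cacng4, a subunit that guides AMPA glutamate receptors to the membrane, was detected in 0 rod-rich and 10 rod-poor cells, with 56.1, 165 and 737 in rod-rich cells and 66.5, 4207 and 12876 in rod-poor cells (difference -3.47). Averaged within labelled groups, Cacng4 differed by -1.52. That average joins -3.66 in the P5 cells with no culture stated and 0.62 in the P5 pSynapsin cells, where 1 cell is rod-poor. The second Cacng4 probe set differed by -0.51 and was detected in 2 rod-rich and 5 rod-poor cells.

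The others of the lowest 15 had varied roles. R3hdm1 differed by -3.48 (3 and 11 cells), the lipid kinase gene Pip4k2b by -3.27 (3 and 10), Supt20 by -3.21 (4 and 12), the receptor phosphatase gene Ptprd by -2.85 (4 and 12), the repeat protein gene Lrrn3 by -2.88 (5 and 11) and the secretory carrier gene Scamp3 by -2.75 (2 and 10). Tbc1d16 and Dtnbp1, both of vesicle traffic, differed by -2.78 (1 and 10) and -2.64 (2 and 10). The kinase gene Stk4 (-2.90), Pld3 (-2.75), the G protein gamma subunit gene Gng2 (-2.68) and the deubiquitinase gene Usp48 (-2.64) complete the group. With the median over probe sets R3hdm1, Supt20, Ptprd and Usp48 lay between -0.42 and 0.00. Genes detected in at least 10 rod-poor and at most 3 rod-rich cells numbered 12 (0.14%), among them Cacng4, R3hdm1 and the tight junction gene Tjp1, again by limits set after the values had been seen.

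Receptor and neurite genes were lower over all cells of both sides, but not in every setting. Of 13 postsynaptic receptor genes that passed the filter, of 18 measured, 10 were below 0, as were 46.6% of all genes. Their median was -0.62 over all cells, -0.20 in cells with Slc6a9 and 0.00 by the difference of side medians. Past the level were 2, Gria1 (-2.83, 0 rod-rich and 6 rod-poor cells) and Gria3. Gria1 was at most 367 in every rod-rich cell and at least 4557 in all 4 rod-poor P5 cells with no culture stated. In cells with Slc6a9 Gria1 differed by -0.20. Of 22 immature neuron genes 16 were below 0, against the same 46.6% of all genes, and their median was -0.55 over all cells but 0.13 in cells with Slc6a9. Among them were Tubb3, the neuronal tubulin, at -2.10 (4 and 11 cells) and Sox11, a factor of new neurons, at 2.21 (7 and 5). Presynaptic genes split 10 above to 9 below, led by the vesicle protein gene Syp at 2.25 and by Cplx3, the complexin of ribbon synapses and AII cells, at 2.09.

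**Figure D5:**
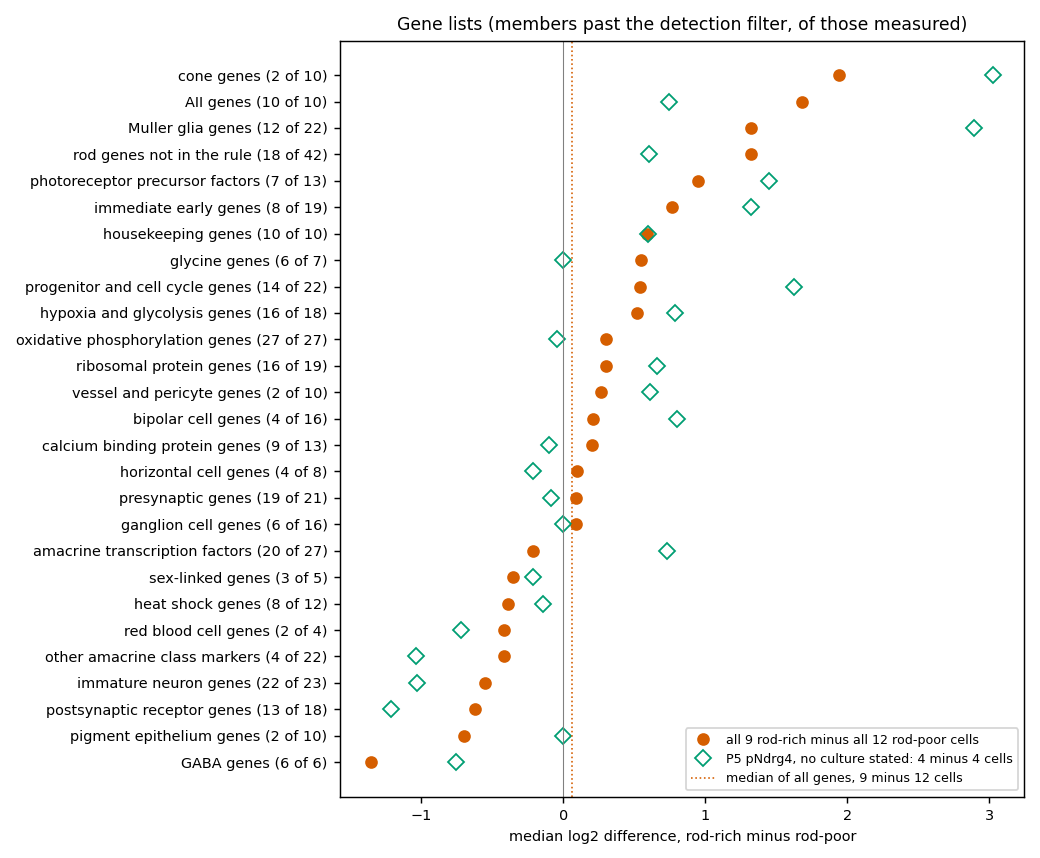
Median log2 difference, rod-rich minus rod-poor, of each gene list with at least 2 members past the detection filter, over all cells of both sides (filled) and within the P5 pNdrg4 group that has no culture stated (open), with a dotted line at the median of all genes. Müller glia genes are at 1.32 and 2.89, and GABA genes at -1.35 and -0.75.

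Energy genes had medians closer to 0. Of 16 hypoxia and glycolysis genes 15 were above 0, as were 53.4% of all genes, with a median of 0.51, and the aldolase gene Aldoa was at 2.13. Oxidative phosphorylation genes had a median of 0.30 over 27, with Uqcrc1 at 2.19 over all cells and -0.69 within the P5 cells with no culture stated. Ribosomal protein genes had 0.30 over 16, housekeeping genes 0.59 over 10 and heat shock genes -0.39 over 8. Immediate early genes had 0.77 over 8, led by Btg2, and 0.00 over all 19 measured, and calcium binding protein genes 0.20 over 9, led by Pcp4 at 2.82 (5 and 1 cells).

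Markers of other retinal and non-retinal cells did not follow the sides by the level. Bipolar genes had a median of 0.21 over 4 that passed, ganglion cell genes 0.09 over 6, horizontal cell genes 0.09 over 4, vessel genes 0.27 over 2, pigment epithelium genes -0.70 over 2, red blood cell genes -0.42 over 2 and sex-linked genes -0.36 over 3. No microglia gene of 10 was detected in any cell, and neither were Trpm1 (bipolar cells), Rpe65 and Ttr (pigment epithelium) or Cldn5 (vessels). The haemoglobin gene Hba-a2 was detected in all 26 cells. Of the reporter genes, Ndrg4 was detected in no cell and Syn1 in 4 rod-rich and 6 rod-poor cells (-0.54).

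Within 8 of the P5 pNdrg4 group that has no culture stated, where age, reporter and stated culture were the same for 4 rod-rich and 4 rod-poor cells, differences spread more widely. There 700 genes were higher by the level (8.18%) and 603 lower (7.04%), and 51 (0.596%) had all 4 rod-rich cells above all 4 rod-poor cells, with 57 (0.666%) below. Of the 50 genes past the level over all cells that are named by rule, 49 kept their direction there and 39 were still past the level. These 8 cells are among those by which the genes were chosen, so this agreement is partly built in. Crym (6.75), Dbi (6.70), Vim (6.01) and Btg2 (5.58) were further apart there than over all cells, and Tulp1 (2.48) was less so. In the 3 sided P5 pSynapsin cells, 2 rod-rich and 1 rod-poor, Crym differed by 5.45, Sgip1 by -5.53 and Lage3 by -1.55.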

How the data were processed

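Expression was measured in 26 single cells, 1 array each. The authors deposited 1 linear signal intensity for each probe set and array; per the submitters' processing notes these are MAS5 signals (software version: not given in the sources used here). Every array has a mean of 500 once 2% of its values are trimmed at each end, so no further scaling was done. Detection calls were not used here, and the depth behind a signal is unknown; the number of arrays limits the precision.

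Of 45101 probe sets 34958 belonged to 1 gene, 932 to several and 9211 to none, and 34754 matched a current RefSeq symbol. Each gene was read from its probe set of highest mean log2 signal, which gave 18193 genes. Signals were floored at 200, log2 transformed and averaged per side; genes detected (at least 1000) in 2 or more cells entered, and the 10 genes that formed the sides were left out of the counts (8560 remained). Cells with 2 or 3 of the 10 genes entered no difference. The labels name no animal or culture, so no p-value was made. Named were the 15 genes with the highest and the 15 with the lowest difference among those detected in 60% or more of the higher side's cells (1 clone-type symbol on the low side was skipped), all rod genes, and list members past 2 log2 units, up to 4 a list. Some other genes were chosen for mention once their values were known. The 30 lists hold 492 genes, 433 of them measured; the rest, with no probe set under their name, were not analysed here. The members and lists were chosen with earlier results of these data known. The work was done with scipy 1.17.1, pandas 2.3.3, numpy 2.4.6 and Python 3.11.15, and figures with matplotlib 3.10.9. The procedure was tested on simulated data, which were shuffled signals of these cells with known shifts added. That test checks the arithmetic of the difference only. Alternatives covered the floor, scaling, probe set choice, filter, averaging, cells used and how the sides were formed. Values within the P5 pNdrg4 group with no culture stated were added after seeing the data.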

Additional observations from a re-analysis of the deposited data

Results flagged for a closer look

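Of 62 groups of values of 4 to 10 cells checked for a cell far from the others, 10 had one. The usual chance rate of about 1 in 20 holds for normal values in separate groups. These were counts and floored signals from groups that share cells, so the 10 cannot be read against that rate. Cell P5 B4 accounted for most. Among the 10 P5 pNdrg4 cells whose labels state no culture it had 3513 genes detected (1909 to 2610 in the others), 13 rod genes outside the 10 (2 to 6), 8 photoreceptor precursor factors (0 to 4) and 13 progenitor and cell cycle genes (1 to 5). Among the 9 rod-rich cells it again stood apart for the precursor factors (8, against 1 to 4) and the progenitor genes (13, against 1 to 5), and for Stk4 (log2 signal 12.41, against 7.64 to 8.72) and Tbc1d16 (12.16, against 7.64 in each other cell). Car2 was low in 1 rod-rich cell, P5 E1, at 7.64, against 11.07 to 14.43 in the others. Among the 4 P5 pSynapsin cells, P5 E3 had 2 progenitor genes and the others 1 each.

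Lage3 differed between groups. It was higher in rod-rich cells by 5.08 in the P5 pNdrg4 group that has no culture stated, and the difference was -1.55 within the P5 pSynapsin cells, where the rod-poor side is a single cell. The difference between these groups was not tested.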

How the results depend on the processing

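The number of genes past 2 log2 units depended strongly on the setting. Genes higher in rod-rich cells numbered 160 as reported, and 423 with a floor of 50, 36 with a floor of 500, 105 with the median over probe sets, 713 with side medians, 525 averaged within labelled groups, 292 in cells with Slc6a9, 383 in cultured cells, 284 with sides formed at 2000, 257 with rod-rich from 5 genes, 354 with rod-poor at 0 genes and 700 within the P5 pNdrg4 group that has no culture stated. Genes lower numbered 83, and in the same order 318, 20, 36, 418, 531, 402 and 173 up to cultured cells, 270 with rod-poor at 0 genes and 603 within the P5 cells. Leaving out 1 cell gave 136 to 196 and 81 to 117. A higher floor and fewer cells change these counts by construction; otherwise the cause was not tested. The median of the other rod genes was 1.32, 0.091 with no filter on low values, which brings in undetected genes, and 0.94 (without P8 B4) to 1.62 without single cells. Gad1 was at 0.45 and Slc6a9 at -0.88 in cells with Slc6a9, Nfia at -0.17 with the median over probe sets and Uqcrc1 at -0.69 within the P5 cells. Of the 50 named genes past 2 log2 units at least 47 kept their direction in every setting. The settings reuse cells by which these genes were chosen, so that agreement is partly built in. Rod-rich cells numbered 6 to 10 and rod-poor cells 10 to 14 when the detection level, scaling or probe set was changed. No paired analysis was possible because replicate numbers were given in accession order and pair nothing. With 9 and 12 cells, 35 PCR cycles and no detection calls, absence of a low transcript cannot be told from its loss.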
